A study of Mus musculus with 8 samples.

Results

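The 34 genes of mitochondrial fatty acid oxidation described here are the enzymes and transporters that activate long-chain fatty acids, move them into the mitochondrion and break them down, together with enzymes that act beside that route. The genes were chosen by name from what their proteins are known to do, with earlier results of these data known. Of the 34 genes, 31 had a probe on the array and 30 were detected, out of 16593 genes on the array and 9803 genes that were detected and tested. Acsl1, Hadha and Acacb had no annotated probe, and the single probe of Cpt1a, the isoform that dominates in liver, was above background on 0 of 8 arrays. The arrays held RNA of mouse cardiomyocytes (CMs) in 3 groups. Embryonic CMs (ECM, n = 2) came from fetal ventricles of stage E15.5, hypertrophic adult CMs (TAC, n = 3) from ventricles of adult hearts with hypertrophy 7 days after an operation, and normal adult CMs (ACM, n = 3) from ventricles of adult control hearts. The strain entry reads CD1 background in the ECM and ACM labels and CD1 in the TAC labels, which give no treatment for any sample and name no operated control. The operation, the hypertrophy and the strain entry therefore cannot be told apart in TAC against ACM. The labels do not say whether the samples of a group were taken from different animals, so a p-value covers only their spread, technical or not.

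Fatty acids are the main fuel of the adult heart, while the fetal heart relies more on glucose and lactate. An acyl-CoA synthetase first links a long-chain fatty acid to coenzyme A, and the carnitine shuttle carries the acyl group across the mitochondrial membranes. The beta-oxidation spiral then removes acetyl-CoA units through a dehydrogenase, a hydratase, a second dehydrogenase and a thiolase, and its electrons reach the respiratory chain in part through the electron transfer flavoprotein. Many of these genes are known targets of the nuclear receptors PPAR and ERR.

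Both ECM arrays had 51.6% of probes above background, with 45.8% to 46.3% on the TAC arrays and 41.9% to 44.0% on the ACM arrays. All 13 measured CM markers were above background on an array of each group, with 7 of 13 lower in ECM than in ACM, while 0 of 13 passed the test in TAC against ACM. Fibroblast markers were higher in both ECM (9 of 12, with 1 lower, Gsn) and TAC (9 of 12) against ACM. Their summed normalised intensity was 6020 to 6650 in ECM, 7340 to 11900 in TAC and 2050 to 3610 in ACM. Of the fibroblast list, Ddr2 was above background on no array. Erythroid markers were higher in ECM (5 of 6), with sums of 34500 to 34900 in ECM, 208 to 3490 in TAC and 233 to 1400 in ACM. Endothelial markers were higher in ECM (7 of 12, with 1 lower) and in TAC (2 of 12), with sums of 9970 to 12500 in ECM, 5190 to 8130 in TAC and 3590 to 6930 in ACM. Epicardial markers were higher in ECM (5 of 9), with sums of 687 to 741 in ECM, 328 to 368 in TAC and 230 to 289 in ACM. Of 8 smooth muscle and pericyte markers, 2 were higher and 2 lower in ECM and 1 higher and 2 lower in TAC. Their sums were 28600 to 29400 in ECM, 4790 to 7050 in TAC and 9200 to 14000 in ACM. Most of each sum was Acta2, whose mean normalised intensity was 28508.7 in ECM, 4696.8 in TAC and 10192.7 in ACM. The median log2 difference of the 8 markers was 0.07 in ECM minus ACM and 0.36 in TAC minus ACM. Of 12 leukocyte markers with a probe, 7 were measured (Cd14, Lyz2, Fcgr3, Tyrobp, Cd74, C1qa and C1qb) and 0 passed the test in either comparison, with sums of 619 to 802 in ECM, 1350 to 1920 in TAC and 343 to 2610 in ACM, while Ptprc, Cd3e and Cd79a were among those above background on no array. The part of these other cell types in the results below was not tested, and in such bulk samples fewer cells of a type and less RNA per cell cannot be told apart.

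The fatty acid oxidation genes were lower as a group in ECM than in ACM. Of 30 detected genes, 24 were lower, against a background of 22.7% of all tested genes, and 3 were higher (Acsl3, Acsl5 and Acot1), against a background of 26.2%. Acsl4, Hadh and Acot2 did not pass the test, which was limma's moderated test on log2 normalised intensities with Benjamini-Hochberg adjustment over all 9803 genes and a threshold of 0.05. The median log2 difference of the 30 genes was -1.38, beside 0.01 for all genes. In TAC against ACM, Acsl6, Slc22a5 and Decr1 were lower, which made 3 of 30 against a background of 1.83%, and 0 were higher, against a background of 3.84%. The median there was -0.37, beside -0.02 for all genes. Both comparisons used the same ACM arrays, so their values are given side by side. When each array was scaled to a common median in place of quantile normalisation, the median of all genes in ECM minus ACM moved to 0.52, with 4561 genes higher and 1117 lower in place of 2573 and 2226. Of the 30 members, 21 were still lower and 3 higher under that scaling, with a median of -1.02.

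**Figure D1:**
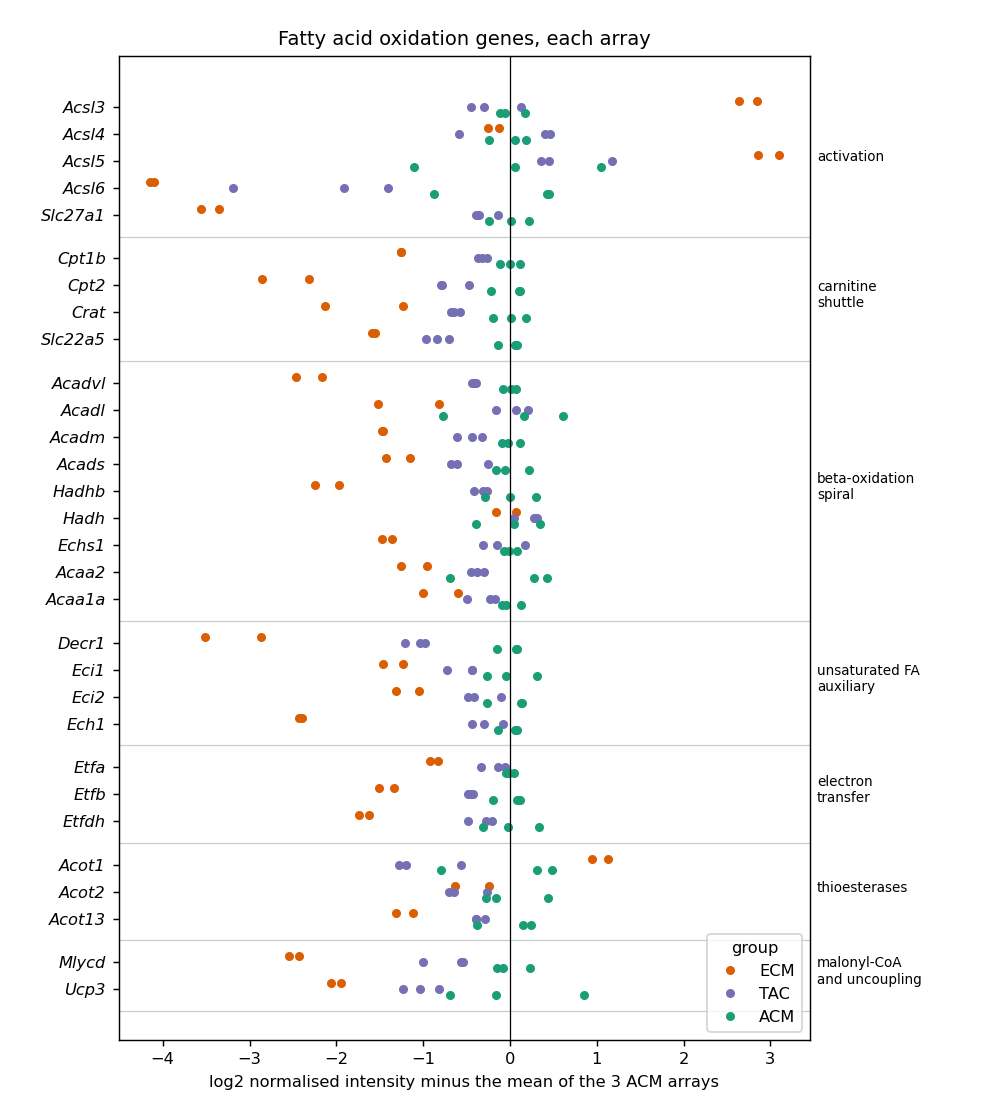
Log2 normalised intensity of each of the 30 detected fatty acid oxidation genes on each of 8 arrays, as the distance from the mean of the 3 ACM arrays on the horizontal axis, with genes grouped by step of the pathway. ECM points lie left of the ACM points for 24 genes that passed the test and right of them for Acsl3, Acsl5 and Acot1, and TAC points lie mostly between the ECM and ACM points.

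The activating enzymes went in both directions, and they are the step where the members differed most among themselves. Acsl3, a long-chain acyl-CoA synthetase of the endoplasmic reticulum and lipid droplets, had log2 normalised intensities of 8.74 and 8.95 in ECM, 5.66, 6.24 and 5.81 in TAC, and 6.05, 6.28 and 5.99 in ACM. Both ECM arrays stood above all adult arrays, while TAC and ACM overlapped. The difference was 2.74 in ECM minus ACM (SE 0.21, adjusted p = 9.9e-06 by limma) and -0.20 in TAC minus ACM (SE 0.19, adjusted p = 0.595 by limma). A second kept probe of Acsl3 gave 0.41 in ECM minus ACM and did not pass (adjusted p = 0.0831 by limma over all kept probes). That probe lay near background, above it on both ECM arrays, on 0 of 3 TAC arrays and on 0 of 3 ACM arrays.

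Acsl5, a synthetase of mitochondrial and endoplasmic reticulum membranes, was 10.42 and 10.65 in ECM, 7.92, 8.74 and 8.01 in TAC, and 6.45, 8.61 and 7.62 in ACM. The ECM arrays were again above all others, and the ACM arrays spread over more than the TAC arrays did. The difference was 2.98 in ECM minus ACM (SE 0.53, adjusted p = 0.0013 by limma) and 0.66 in TAC minus ACM (95% interval -0.40 to 1.73, adjusted p = 0.473 by limma). Acsl4, a synthetase that prefers arachidonic acid, was 4.86 and 4.74 in ECM, 5.45, 5.39 and 4.39 in TAC, and 4.74, 5.04 and 5.17 in ACM. All 3 groups of Acsl4 values overlapped close to background, and neither comparison with ACM passed (95% intervals -0.88 to 0.51 for ECM and -0.53 to 0.72 for TAC).

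Acsl6, a synthetase known mostly from brain, went the other way. Its values were 4.22 and 4.27 in ECM, 6.96, 6.45 and 5.18 in TAC, and 8.79, 8.82 and 7.49 in ACM. The groups did not overlap, and the probe was above background on 0 of 2 ECM arrays and on all adult arrays. Acsl6 was at least 13.9-fold lower in ECM than in ACM (adjusted p = 2.13e-04 by limma), a bound set by the dimmest signal that counted as above background on the ECM arrays, and it was lower by 2.17 on the log2 scale in TAC than in ACM (SE 0.47, adjusted p = 0.0331 by limma), which is 4.51-fold. Slc27a1, a fatty acid transport protein with synthetase activity, was 5.47 and 5.27 in ECM, 8.47, 8.43 and 8.69 in TAC, and 8.59, 8.84 and 9.05 in ACM. ECM stood far below both adult groups, by 11-fold against ACM (log2 difference -3.46, SE 0.19, adjusted p = 1.64e-06 by limma), and TAC overlapped ACM (-0.30, SE 0.17, adjusted p = 0.370 by limma).

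**Figure D2:**
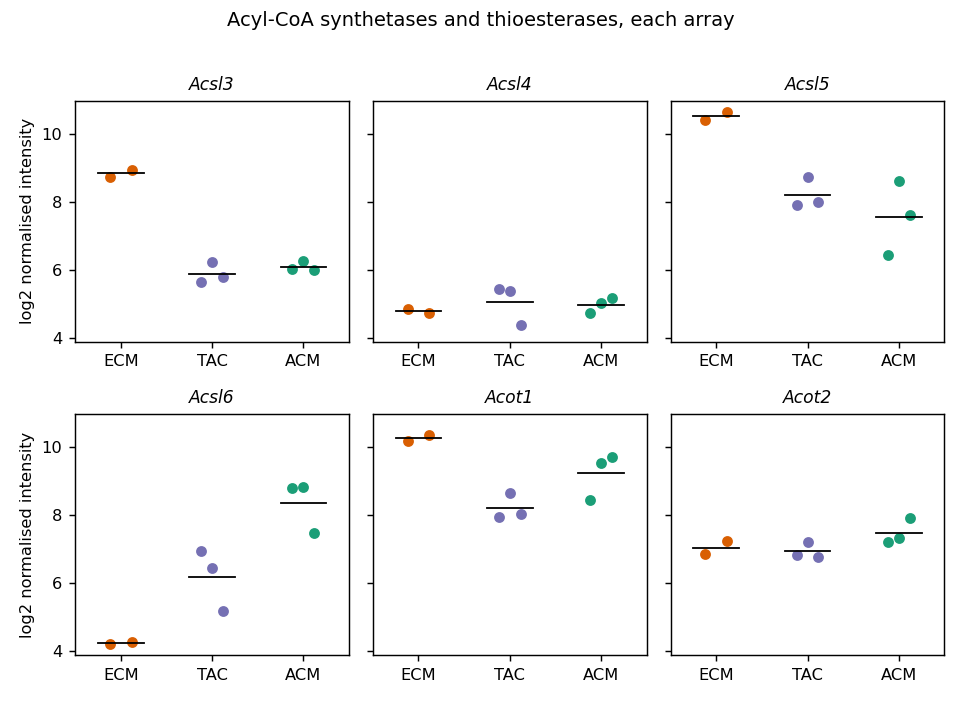
Log2 normalised intensity of 4 acyl-CoA synthetases (Acsl3, Acsl4, Acsl5, Acsl6) and 2 thioesterases (Acot1, Acot2) on each array, with a bar at each group mean. ECM lies above ACM for Acsl3, Acsl5 and Acot1 and below it for Acsl6, where TAC lies between ECM and ACM, and heights are not comparable between genes because each has its own probe.

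All 4 detected genes of the carnitine shuttle were lower in ECM than in ACM (median -1.63), against a background of 22.7%. Their TAC arrays lay below their ACM arrays without overlap, as they did for 13% of all genes. Cpt1b encodes the muscle isoform of the outer-membrane carnitine palmitoyltransferase, the enzyme that malonyl-CoA inhibits. It had values of 10.89 and 10.89 in ECM, 11.83, 11.79 and 11.89 in TAC, and 12.15, 12.04 and 12.27 in ACM. The 3 groups were in order and apart, with -1.26 in ECM minus ACM (SE 0.16, adjusted p = 1.7e-04 by limma) and -0.32 in TAC minus ACM, which did not pass (SE 0.14, adjusted p = 0.237 by limma). A second kept probe of Cpt1b gave -1.32 in ECM minus ACM and passed. In TAC minus ACM it gave -0.67 and did not pass (adjusted p = 0.0634 by limma over all kept probes).

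Cpt2, the inner-membrane partner that restores acyl-CoA in the matrix, was 9.83 and 10.38 in ECM, 12.22, 11.91 and 11.89 in TAC, and 12.46, 12.80 and 12.80 in ACM. ECM was 6.0-fold lower than ACM (log2 difference -2.59, SE 0.22, adjusted p = 1.9e-05 by limma), and TAC minus ACM was -0.68 (SE 0.20, adjusted p = 0.0852 by limma). Crat, carnitine acetyltransferase, was 9.03 and 9.92 in ECM, 10.48, 10.51 and 10.58 in TAC, and 10.97, 11.34 and 11.16 in ACM. The ECM arrays of Crat were the least alike of any shuttle gene, and ECM was 3.20-fold lower than ACM (SE of the log2 difference 0.26, adjusted p = 5.77e-04 by limma). Slc22a5, the plasma membrane carnitine transporter, was 7.68 and 7.65 in ECM, 8.53, 8.27 and 8.40 in TAC, and 9.30, 9.10 and 9.32 in ACM. It was lower in both comparisons, by 2.98-fold in ECM against ACM (adjusted p = 6.28e-05 by limma) and by 1.79-fold in TAC against ACM (log2 difference -0.84, SE 0.15, adjusted p = 0.0143 by limma).

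In the beta-oxidation spiral, 8 of 9 detected genes were lower in ECM than in ACM, against a background of 22.7%. In TAC against ACM 0 of 9 passed, where 1.83% of all genes were lower and 3.84% higher. Acadvl, the dehydrogenase for very long chains, was 10.62 and 10.92 in ECM, 12.67, 12.69 and 12.64 in TAC, and 13, 13.15 and 13.09 in ACM. ECM was 4.97-fold lower (log2 difference -2.31, SE 0.16, adjusted p = 6.09e-06 by limma), and the TAC arrays sat just under the ACM arrays (-0.42, SE 0.15, adjusted p = 0.145 by limma). Hadhb, the thiolase subunit of the trifunctional protein, was 10.72 and 10.45 in ECM, 12.27, 12.38 and 12.43 in TAC, and 12.69, 12.40 and 12.98 in ACM. ECM was 4.30-fold lower (adjusted p = 4.07e-05 by limma), while TAC and ACM overlapped at ACM replicate 2. The partner subunit gene Hadha had no probe.

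The other acyl-CoA dehydrogenases were lower in ECM as well. Acadm, for medium chains and the gene of the most common inherited defect of this pathway in humans, was lower by 1.47 on the log2 scale (SE 0.17, adjusted p = 9.88e-05 by limma), Acads, for short chains, by 1.29 (SE 0.20) and Acadl, for long chains, by 1.17 (SE 0.38, adjusted p = 0.0293 by limma). Acadl had the widest spread among them, at 12.25, 10.87 and 11.80 in ACM, where replicate 2 came close to the higher ECM array (10.83 and 10.12 in ECM). It passed in 9 of 16 alternatives, and not in those without ECM replicate 2, ACM replicate 1 or ACM replicate 3, under median scaling, in the authors' normalised table, with no detection filter or with only the 2 groups compared. These values are of the brightest of the 3 kept probes of Acadl. Another gave -1.77 in ECM minus ACM and passed (adjusted p = 7.3e-05 by limma over all kept probes). The last gave -0.63 and did not pass (adjusted p = 0.11 by limma over all kept probes), and it was above background on 1 of 2 ECM arrays. Acads was 9.80 and 9.52 in ECM, 10.34, 10.70 and 10.28 in TAC, and 10.89, 10.80 and 11.17 in ACM, with no overlap among the groups, although TAC minus ACM (-0.51, SE 0.18) did not pass.

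The later enzymes of the spiral were lower in ECM too. The hydratase Echs1 was lower by 1.42 (SE 0.18), the mitochondrial thiolase Acaa2 by 1.11 (SE 0.31, adjusted p = 0.0149 by limma) and Acaa1a, a thiolase of peroxisomes, by 0.80 (SE 0.19) on the log2 scale. The call of Acaa1a was lost under median scaling (-0.36, adjusted p = 0.169 by limma) and without ECM replicate 2, and that of Acaa2 without ECM replicate 2 (adjusted p = 0.106 by limma). For Echs1 the TAC arrays lay on both sides of the ACM arrays, at 12.11, 11.79 and 11.62 in TAC against 11.92, 11.87 and 12 in ACM. Acaa2 was 11.80 and 11.50 in ECM, 12.46, 12.38 and 12.31 in TAC, and 13.03, 12.06 and 13.18 in ACM. As for Acadl, ACM replicate 2 stood apart from the other ACM arrays, here below all TAC arrays. Without it Acaa2 passed in TAC against ACM (adjusted p = 0.0460 by limma), and no other of 16 alternatives gave that call. Hadh, the dehydrogenase for short-chain hydroxyacyl-CoA, was 4.82 and 4.59 in ECM, 5.03, 5.06 and 4.79 in TAC, and 5.10, 4.36 and 4.79 in ACM. These values lay near background, with 1 of 3 ACM arrays above it, and the groups overlapped (ECM minus ACM -0.05, 95% interval -0.57 to 0.47).

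The enzymes that prepare unsaturated fatty acids for the spiral were all lower in ECM than in ACM (4 of 4, median -1.88, background 22.7%). Decr1, the mitochondrial dienoyl-CoA reductase, was 6.29 and 6.93 in ECM, 8.82, 8.59 and 8.77 in TAC, and 9.65, 9.87 and 9.89 in ACM. The 3 groups were in order with clear gaps between them. Decr1 was 9.12-fold lower in ECM than in ACM (log2 difference -3.19, SE 0.21, adjusted p = 4.73e-06 by limma) and 2.11-fold lower in TAC than in ACM (-1.07, SE 0.19, adjusted p = 0.0150 by limma). Ech1, a dienoyl-CoA isomerase, was 11.38 and 11.34 in ECM, 13.70, 13.48 and 13.34 in TAC, and 13.64, 13.86 and 13.84 in ACM. It was 5.33-fold lower in ECM (SE 0.17 on the log2 scale, adjusted p = 6.79e-06 by limma), and TAC overlapped ACM (-0.27, SE 0.16, adjusted p = 0.361 by limma). The enoyl-CoA isomerases Eci1 and Eci2 were lower in ECM by 1.35 (SE 0.21) and 1.18 (SE 0.20) on the log2 scale. Under median scaling Eci2 stood at -0.42 and did not pass (adjusted p = 0.111 by limma). Eci1 was 11.23 and 10.99 in ECM, 12.02, 12.02 and 11.73 in TAC, and 12.41, 12.19 and 12.77 in ACM. Its groups were apart, with TAC minus ACM at -0.54 (SE 0.19, adjusted p = 0.144 by limma).

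All 3 genes of electron transfer were lower in ECM than in ACM, against a background of 22.7%. Etfdh, which passes electrons from the flavoprotein to ubiquinone, was 10.05 and 10.17 in ECM, 11.51, 11.57 and 11.31 in TAC, and 12.12, 11.47 and 11.77 in ACM. ECM was 3.20-fold lower than ACM (adjusted p = 1.93e-04 by limma), and TAC replicate 2 lay above ACM replicate 2. Etfb, the beta subunit of the flavoprotein, was 12.79 and 12.96 in ECM, 13.88, 13.82 and 13.86 in TAC, and 14.11, 14.38 and 14.41 in ACM. It was 2.69-fold lower in ECM (adjusted p = 1.24e-04 by limma), with TAC below ACM on every array (-0.45, SE 0.15, adjusted p = 0.126 by limma). The alpha subunit Etfa was lower in ECM by 0.88 (SE 0.16, adjusted p = 0.0017 by limma), among the smallest differences of the 24 lower genes. That value is of its brightest probe, and its other kept probes passed as well, at -1.13, -1.24 and -1.06.

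The thioesterases, which release the fatty acid from coenzyme A, did not go together. Acot1, a cytosolic enzyme, was 10.18 and 10.37 in ECM, 7.96, 8.67 and 8.04 in TAC, and 8.44, 9.55 and 9.72 in ACM. Both ECM arrays were above every adult array, and TAC overlapped ACM only through ACM replicate 1. Acot1 was 2.05-fold higher in ECM than in ACM (log2 difference 1.04, SE 0.37, adjusted p = 0.0450 by limma), a call lost in 8 of 16 alternatives, 5 of which left out 1 array (ECM replicates 1 and 2, TAC replicates 1 and 3, ACM replicate 1), with adjusted p-values by limma of 0.0034 to 0.184 over all of them. In TAC minus ACM it was -1.01 (SE 0.33, adjusted p = 0.123 by limma), while its second kept probe gave -0.88 and passed (adjusted p = 0.0419 by limma over all kept probes). In ECM minus ACM that second probe gave 0.47 and did not pass (adjusted p = 0.119 by limma over all kept probes), so the higher call of Acot1 there rested on 1 of its 2 kept probes.

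Acot2, the mitochondrial relative of Acot1, was 6.85 and 7.24 in ECM, 6.85, 7.23 and 6.78 in TAC, and 7.21, 7.32 and 7.93 in ACM. All groups overlapped, at -0.44 in ECM minus ACM (95% interval -1.02 to 0.14) and -0.54 in TAC minus ACM (SE 0.23, adjusted p = 0.227 by limma), and the sign of the ECM value turned to 0.54 under median scaling. Acot1 and Acot2 are close copies of each other, so their probes may share signal. Acot13, a small thioesterase at the mitochondrion, was 11.06 and 11.26 in ECM, 11.98, 12.08 and 11.99 in TAC, and 12.61, 11.99 and 12.52 in ACM. It was 2.32-fold lower in ECM (adjusted p = 0.0012 by limma), and ACM replicate 2 lay among the TAC arrays.

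Of the genes that act on malonyl-CoA or on uncoupling, both detected ones were lower in ECM, against a background of 22.7%. Mlycd, malonyl-CoA decarboxylase, removes the inhibitor of Cpt1b. It was 7.44 and 7.56 in ECM, 9.44, 9.43 and 8.99 in TAC, and 9.91, 9.83 and 10.22 in ACM, with no overlap among the groups. ECM was 5.62-fold lower than ACM (adjusted p = 1.54e-05 by limma), and TAC minus ACM was -0.70 (SE 0.18, adjusted p = 0.0623 by limma). Ucp3, an uncoupling protein of muscle, was 4.22 and 4.33 in ECM, 5.25, 5.05 and 5.47 in TAC, and 6.12, 5.59 and 7.14 in ACM. It was above background on 0 of 2 ECM arrays and was at least 3.28-fold lower in ECM than in ACM (adjusted p = 0.0020 by limma), with TAC minus ACM at -1.03 (SE 0.34, adjusted p = 0.123 by limma).

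**Figure D3:**
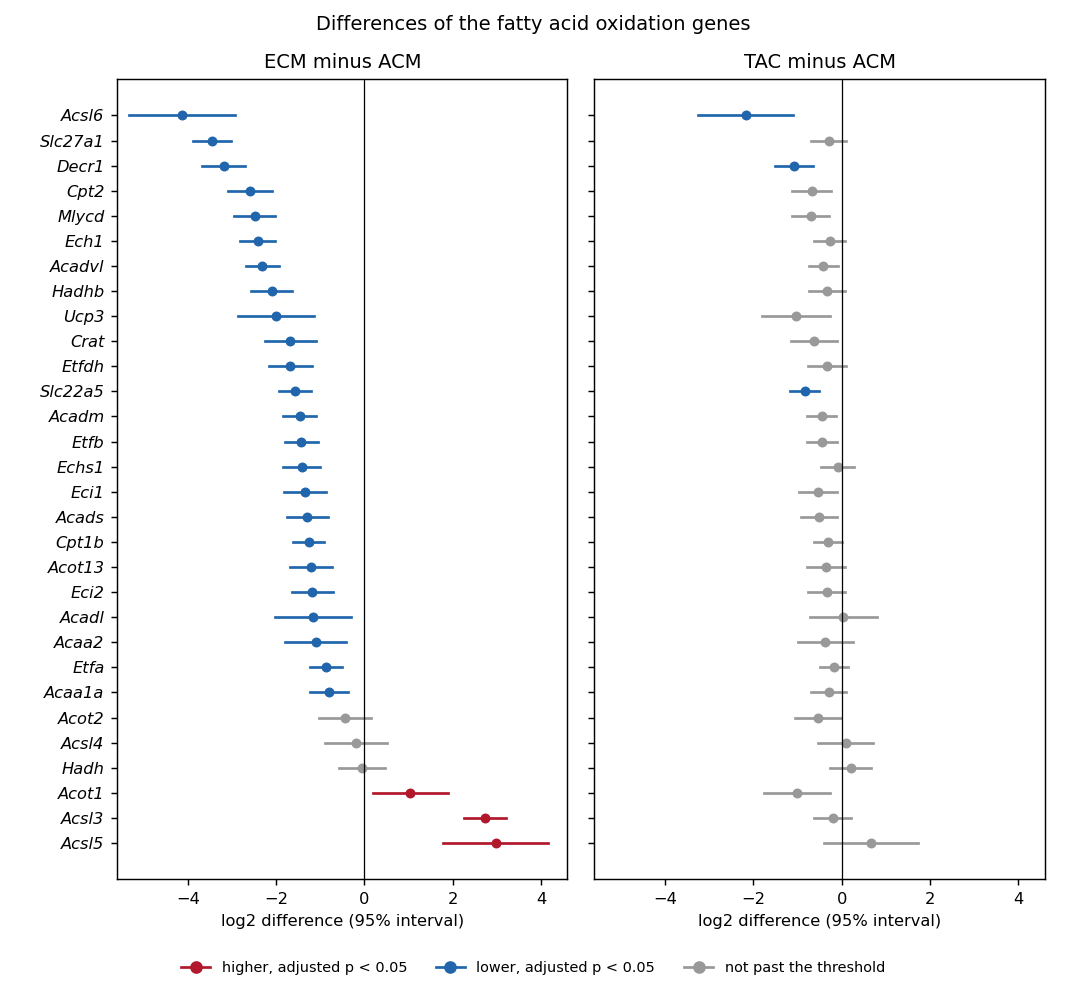
Log2 difference of each detected gene in ECM minus ACM (left) and TAC minus ACM (right), with genes in the order of the ECM values. Points are limma estimates, lines their 95% intervals and colours the call, with 24 lower and 3 higher genes on the left and 3 lower genes (Acsl6, Decr1, Slc22a5) on the right.

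In TAC against ACM most of the genes lay below ACM by amounts that did not pass the test. The difference was negative for 26 of 30 genes, beside 5155 of all 9803 genes, and the exceptions were Acsl4, Acsl5, Acadl and Hadh. For Acadl, the kept probes other than the brightest gave -0.43 and 0.08 there, and neither passed. At an unadjusted p under 0.05 by limma, 15 of 30 genes were lower, against a background of 10% of all genes. The 3 TAC arrays lay below the 3 ACM arrays without overlap for 15 of 30 genes, against a background of 13%. They lay above them without overlap for 0 of 30 genes, beside 1210 of all 9803 genes. The 3 genes that passed come from different steps: activation (Acsl6), the carnitine shuttle (Slc22a5) and the auxiliary enzymes (Decr1). Next in order of p were Mlycd and Cpt2. Without TAC replicate 2 the count was 0 of 30, as it was without TAC replicate 3, and without ACM replicate 2 it was 4. Acsl6 passed in 6 of 16 alternatives, while Slc22a5 and Decr1 passed in 13 each. Decr1 was lost without TAC replicate 2 or 3 or ACM replicate 3, Slc22a5 without TAC replicate 2 or 3 and with the mean of kept probes. Acsl6 was lost without either ECM array, TAC replicate 2 or 3, or ACM replicate 1 or 2, in the authors' normalised table, with no detection filter, with the mean of kept probes and with only the 2 groups compared. The fibroblast markers of the TAC arrays were higher beside these values (9 of 12), and their part in them was not tested.

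**Figure D4:**
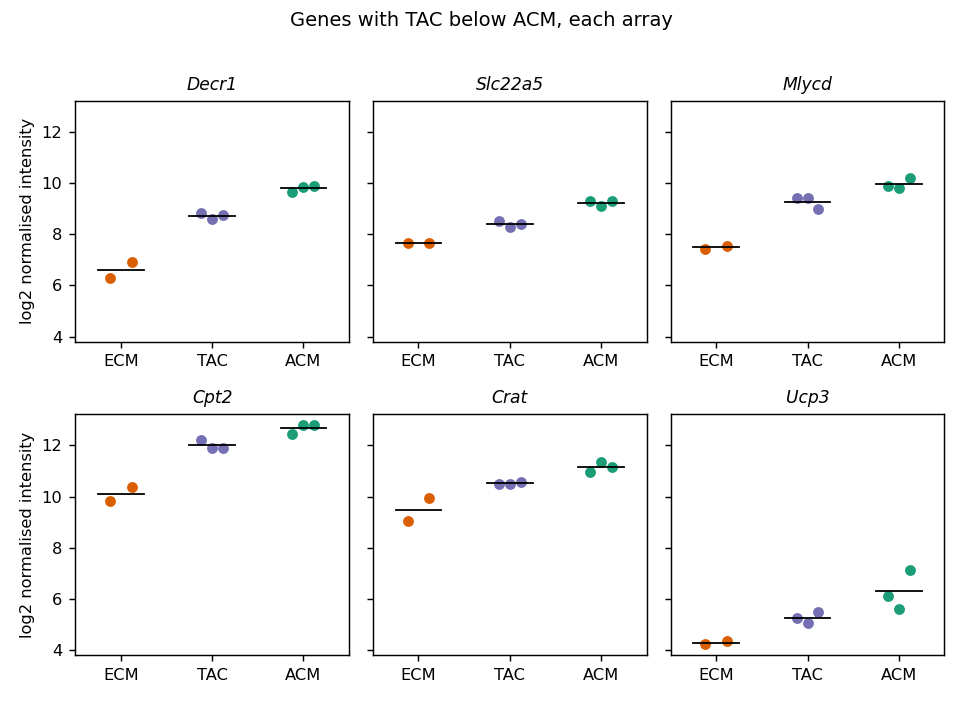
Log2 normalised intensity of 6 genes in which every TAC array lay below every ACM array, with a bar at each group mean. Decr1 and Slc22a5 passed the test in TAC against ACM, Mlycd (-0.70), Cpt2 (-0.68), Crat (-0.63) and Ucp3 (-1.03) did not, and heights are not comparable between genes.

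ECM set directly against TAC gave 21 lower and 3 higher genes of 30, against backgrounds of 19.7% and 23.8%, with a median of -0.96. The 3 higher genes were Acsl3 (2.94, SE 0.21), Acsl5 (2.31, SE 0.53) and Acot1 (2.05, SE 0.37). Acsl6 was at least 3.08-fold lower in ECM than in TAC (adjusted p = 0.0152 by limma), a call kept in 11 of 16 alternatives and lost without ECM replicate 1 or 2, without background correction, in the authors' normalised table and with the mean of kept probes (adjusted p up to 0.147 by limma). Beside the 3 genes that did not pass against ACM, Acaa2 (-0.73), Acaa1a (-0.51) and Ucp3 (-0.98) did not pass here. Under median scaling 15 genes were lower, and without ECM replicate 2 the count was 16.

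Of the 60 probes of these genes, 54 were kept, and 42 of them were lower in ECM than in ACM, against a background of 22.2% of all kept probes. In TAC against ACM 6 kept probes were lower, against a background of 1.3%. These were 1 probe each of Acsl6, Decr1, Acaa2 and Acot1 and 2 of the 3 probes of Slc22a5. Among 16 genes with several kept probes, all probes gave the same call for 13 genes in ECM against ACM and for 12 in TAC against ACM, and 0 genes had probes with opposite calls. In TAC against ACM none of those 12 genes had a probe that passed. The others (Acaa2, Acot1, Acsl6 and Slc22a5) each had a lower probe beside one or more that did not pass. For Acsl6 the second probe was lower in ECM by 1.14 on the log2 scale (adjusted p = 0.0366 by limma over all kept probes) and did not pass in TAC (-0.79, adjusted p = 0.254 by limma). It was above background on 1 of 2 ECM arrays and 2 of 3 TAC arrays. For Acaa2 a probe other than the brightest gave -0.79 in TAC minus ACM (adjusted p = 0.0440 by limma over all kept probes).

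The other genes of the pathway were counted from lists of known function. In ECM against ACM the backgrounds for these counts were 22.7% of all genes lower and 26.2% higher. In TAC against ACM they were 1.83% lower and 3.84% higher. Of 17 measured genes of other mitochondrial acyl-CoA metabolism, 14 were lower in ECM than in ACM and 0 higher (median -1.31). Those with the smallest p-values were Acss1, the mitochondrial acetyl-CoA synthetase (-4.72, SE 0.26), Pcca, a propionyl-CoA carboxylase subunit (-2.25, SE 0.21), and the branched-chain dehydrogenases Acadsb (-2.07, SE 0.21) and Ivd (-1.86, SE 0.20). In TAC against ACM 1 of 17 was lower, the medium-chain synthetase family member Acsm5, which was above background on 0 of 3 TAC arrays and was at least 2.91-fold lower (adjusted p = 0.0117 by limma), a call lost in the authors' normalised table (adjusted p = 0.0751 by limma). Peroxisomal oxidation had 7 of 14 genes lower in ECM than in ACM, and 0 of 14 passed in TAC. Its named genes were Nudt7, which cleaves coenzyme A (-2.44, SE 0.16), the carrier and thiolase Scp2 (-2.08, SE 0.18), the oxidase Acox3 (-2.86, SE 0.28) and the transporter Abcd3 (-2.24, SE 0.23).

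In ECM against ACM, 12 of 15 genes of fatty acid uptake and storage were lower and 2 higher (Fabp5 and Slc27a6). The backgrounds were 22.7% and 26.2%, and the higher count was 0 to 2 over the alternatives. The lipid droplet proteins Plin4 (-6.98, SE 0.29) and Plin5 (-6.06, SE 0.19), the triglyceride synthase Dgat2 (-4.77, SE 0.28) and the lipase Pnpla2 (-3.21, SE 0.21) had the smallest p-values. Plin5, which tethers droplets to mitochondria, was 4.36 and 4.58 in ECM, 10.04, 9.66 and 9.55 in TAC, and 10.63, 10.42 and 10.53 in ACM. In ECM it was above background on 1 of 2 arrays, so the size of its ECM difference is limited by background. It was also the 1 of 15 genes lower in TAC, against a background of 1.83%. The TAC difference of Plin5 was -0.78 (SE 0.17, adjusted p = 0.0356 by limma), a call that held in 7 of 16 alternatives. The losses included the fits without TAC replicate 2 or 3, ECM replicate 1 or 2, or ACM replicate 1 or 3, with the mean of kept probes and with only the 2 groups compared. Fatty acid synthesis, the opposing pathway, had 7 of 13 genes higher and 4 lower in ECM (median 0.85), against backgrounds of 26.2% and 22.7%. The elongase Elovl6 was above background in ECM alone and at least 6.64-fold higher there than in ACM, and Acly, which makes cytosolic acetyl-CoA from citrate, stood at 2.30 (SE 0.21). Acss2, the cytosolic acetyl-CoA synthetase, was lower (-2.11, SE 0.21), as was the lipogenic regulator Thrsp (at least 10.9-fold), which was also lower in TAC than in ACM (-1.58, SE 0.38, adjusted p = 0.0474 by limma), a call kept in 5 of 16 alternatives. The losses included the fits without either of the ECM arrays, TAC replicate 2 or 3, or ACM replicate 1 or 3, without background correction, in the authors' normalised table, with no detection filter and with only the 2 groups compared.

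**Figure D5:**
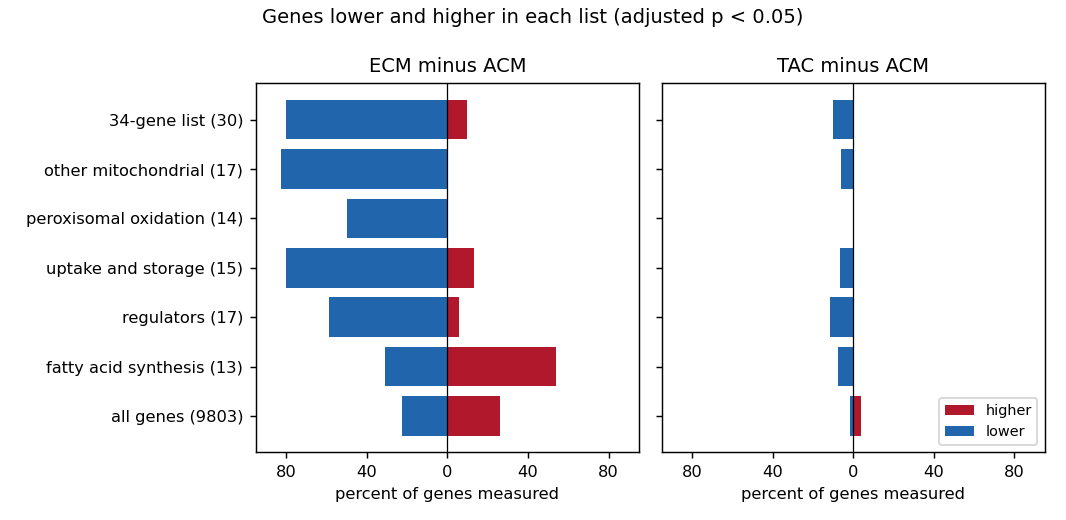
Percent of the measured genes of each list (their number in brackets) that were lower (left of 0) or higher (right of 0) in ECM minus ACM and in TAC minus ACM at an adjusted p under 0.05 by limma. Of the 30 fatty acid oxidation genes 24 were lower and 3 higher in ECM, beside 22.7% and 26.2% of all genes, and fatty acid synthesis had more higher than lower genes.

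Among 17 measured regulators of the pathway, 10 were lower in ECM than in ACM (6 under median scaling) and 1 was higher, Nrf1. The backgrounds were 22.7% lower and 26.2% higher, and under median scaling 1117 of 9803 genes were lower. Ppara, the nuclear receptor PPAR alpha, was 4.76 and 4.62 in ECM, 6.08, 5.87 and 5.68 in TAC, and 7.03, 6.55 and 6.84 in ACM. The groups were apart, with the TAC arrays between those of ECM and ACM. The ECM values lay above background but close to it, which limits the size of the ECM difference. Ppara was lower by 2.12 on the log2 scale in ECM (SE 0.20, adjusted p = 3.56e-05 by limma) and by 0.93 in TAC (SE 0.18, adjusted p = 0.0211 by limma), the TAC call being lost without TAC replicate 2 or 3 or ACM replicate 1 or 3. Rxrg, a retinoid X receptor and so a partner of PPAR, was 4.29 and 4.32 in ECM, 8.51, 8.10 and 8.39 in TAC, and 9.30, 10.37 and 9.40 in ACM. It was at least 34.8-fold lower in ECM than in ACM, being above background on 0 of 2 ECM arrays, and lower by 1.36 in TAC (SE 0.27, adjusted p = 0.0245 by limma), a call lost without TAC replicate 2 or 3, in the authors' normalised table, with no detection filter and with only the 2 groups in the fit. Lpin1, a lipin that coactivates PPAR alpha in liver, stood at -4.19 (SE 0.19) in ECM minus ACM, and the ERR family member Esrrb at -1.95 (SE 0.22). In that comparison 6 of the 17 regulators did not pass. Ppargc1a, for example, was 9.99 and 10.14 in ECM and 10.02, 10.23 and 10.06 in ACM, so the groups overlapped.

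Promoter windows of 300 bases, 250 before and 50 after the start of the RefSeq gene on mouse build GRCm38.p6, were given for 29 of the 34 genes and were searched on both strands for the known elements of these receptors. Cpt1b, Crat, Acaa2, Decr1 and Acot13 had no window and were not searched. The hexamer AGGTCA, which PPAR, RXR and ERR share, stood in the windows of 7 of 29 members (24.1%), beside 18.1% of all 27025 genes with a window. The PPAR/RXR element DR1, a direct repeat of that hexamer with 1 base between, had 0 exact matches among the members, beside 0.0481% of all genes. With up to 2 mismatches it had 3 matches (Echs1, Etfa and Ucp3, 10.3%), beside 4.4%. The ERR element TNAAGGTCA, which contains the hexamer, had 1 match (Acsl6, 3.45%), beside 1.43%. The 4 genes with a DR1 or ERR match were all lower in ECM than in ACM, as were 24 of the 30 detected members. Their 4 windows are printed below. Each runs 5′ to 3′ on the strand of its gene, with the match in capitals as it reads on that strand. Acsl6 (chr11:54303574-54303873, plus strand) holds the ERR element in reverse, Echs1 (chr7:140116372-140116671, minus strand) and Ucp3 (chr7:100472741-100473040, plus strand) hold DR1 in the direction of the gene, and Etfa (chr9:55512194-55512493, minus strand) holds it in reverse.
Acsl6: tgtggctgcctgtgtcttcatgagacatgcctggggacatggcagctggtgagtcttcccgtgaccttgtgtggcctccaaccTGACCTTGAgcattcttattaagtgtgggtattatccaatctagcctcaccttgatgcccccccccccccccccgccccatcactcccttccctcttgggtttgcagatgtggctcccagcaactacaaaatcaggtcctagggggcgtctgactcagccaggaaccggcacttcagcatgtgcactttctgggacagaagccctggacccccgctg
Echs1: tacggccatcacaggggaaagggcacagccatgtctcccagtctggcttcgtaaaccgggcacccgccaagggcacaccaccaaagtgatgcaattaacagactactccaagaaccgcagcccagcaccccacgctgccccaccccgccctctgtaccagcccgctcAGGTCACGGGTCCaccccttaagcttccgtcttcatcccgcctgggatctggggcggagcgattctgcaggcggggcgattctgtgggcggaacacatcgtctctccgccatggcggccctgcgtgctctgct
Etfa: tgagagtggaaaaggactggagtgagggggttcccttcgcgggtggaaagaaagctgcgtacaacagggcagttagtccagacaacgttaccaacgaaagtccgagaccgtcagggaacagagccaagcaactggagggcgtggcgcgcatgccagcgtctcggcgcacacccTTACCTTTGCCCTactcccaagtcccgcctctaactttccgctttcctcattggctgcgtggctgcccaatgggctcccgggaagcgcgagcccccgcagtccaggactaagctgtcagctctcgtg
Ucp3: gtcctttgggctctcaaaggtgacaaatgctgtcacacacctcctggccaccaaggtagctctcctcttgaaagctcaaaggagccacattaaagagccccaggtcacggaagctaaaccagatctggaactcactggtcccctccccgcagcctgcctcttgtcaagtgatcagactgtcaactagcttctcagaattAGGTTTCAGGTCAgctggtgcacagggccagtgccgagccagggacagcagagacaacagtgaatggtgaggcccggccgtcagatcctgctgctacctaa
The matches began 167 bases before the start for Acsl6, 83 for Echs1, 77 for Etfa and 51 for Ucp3. Acsl6 and Ucp3 were the 2 detected members above background on neither ECM array, while Echs1 (-1.42) and Etfa (-0.88) were lower by less. Of genes whose windows held neither element, Slc27a1 (-3.46) and Cpt2 (-2.59) were lower by more than Echs1 in ECM minus ACM. Acaa1a (-0.80), also without either element, was lower by less than Etfa. Any relation of the matches to these differences was not tested. A match of letters is a description and was not tested for binding.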

How the data were processed

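Each of the 8 RNA samples was hybridised to its own array of the Illumina MouseRef-8 v2.0 design. The authors deposited mean bead intensity values on a linear scale, read with GenomeStudio (version 2011 in the submitters' processing notes), without background subtraction or normalisation. A detection p-value, which ranks a probe among the negative-control beads, was deposited with every intensity. The authors' own intensities after background subtraction and quantile normalisation, deposited separately, served as an alternative.

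In R 4.3.3, neqc of limma 3.58.1 estimated background through the detection p-values, added an offset of 16 and quantile-normalised on the log2 scale. A probe was kept where its detection p was below 0.05 for 2 or more of the 8 arrays, which left 13494 of 25697 (1719 had no gene symbol and were not used), and the brightest kept probe stood for its gene. All 3 groups entered 1 linear model (lmFit, contrasts.fit, eBayes), with p-values adjusted by Benjamini-Hochberg over 9803 genes. A gene above background on no array of a group was given a bound, the mean of the bright group over the dimmest signal above background on the dim group's arrays or the gene's own, whichever was higher. The fit was tested on simulated arrays. Its first criterion, a share of changed genes recovered, was narrowly missed for ECM against ACM and was then replaced by limits on bias and on wrong calls, with the fit left as it was. The small number of arrays limits the precision, and the chip of each array is not given in the sources used here. All per-sample columns were used.

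The members and lists were chosen with earlier results of these data known. Every member is accounted for, and values of all arrays are given for members that passed in TAC against ACM, the 2 largest ECM changes of each step, members higher or not past in ECM, and the Cpt1, Acsl and Acot families, while those of other members were added after their values were seen. Of each other list, the 4 genes with the smallest p in ECM against ACM and those past the threshold in TAC are named, and others named were chosen after their values were seen. A planned ratio of Cpt1b to Cpt1a was not computed, since Cpt1a was not above background. Promoter windows were those of RefSeq on GRCm38.p6, matched by symbol. Plots and motif searches used Python 3.11.15, pandas 2.3.3 and matplotlib 3.10.9.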

Additional observations from a re-analysis of the deposited data

How the results depend on the processing

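Each comparison of the 30 genes was repeated under 16 alternatives. In ECM against ACM 21 to 24 genes were lower and 2 to 3 higher. The count of genes lower in TAC than in ACM was 3, against 5 under median scaling, 8 without background correction, 1 with the mean of kept probes in place of the brightest, and 0 to 4 when 1 array was left out, with 0 without TAC replicate 2 and 0 without TAC replicate 3. The cause was not tested. ECM against TAC gave 15 lower genes under median scaling and 16 to 23 when 1 array was left out. Values that changed sign were those of Slc22a5 in ECM minus TAC under median scaling (0.078), Acot2 in ECM minus ACM under median scaling (0.54), Acsl4 in ECM minus ACM under median scaling (0.12) and with the mean of kept probes (0.11), Hadh in ECM minus ACM under median scaling (0.12), Hadh in TAC minus ACM in the authors' table (-0.0039) and Acadl in TAC minus ACM with the mean of kept probes (-0.10). With 1 array left out, the sign turned for Hadh in ECM minus ACM (-0.25 to 0.13), Acot2 in ECM minus TAC (-0.10 to 0.29), and Acsl4 (-0.10 to 0.44), Acadl (-0.34 to 0.34) and Echs1 (-0.23 to 0.018) in TAC minus ACM. Of these only Slc22a5 had passed the test. Deviations from the group means correlated at r = -0.10 to 0.13 for samples of the same number, against -0.13 to 0.10 for other pairs. The 2 ECM arrays deviate by equal and opposite amounts, so their pairs mirror each other and the ranges cannot decide on pairing. A fit with the replicate number as a block gave 24 lower and 3 higher genes in ECM minus ACM and 3 lower in TAC minus ACM. In ECM minus TAC it gave 21 lower and 3 higher genes. No call of the 30 genes changed with that block. Of the genes of other lists named as lower in TAC than in ACM, Plin5 and Thrsp did not pass with that block. Repeats of the other lists, chosen after seeing the data, gave 10 lower genes of other mitochondrial metabolism, 5 of peroxisomal oxidation and 9 of uptake and storage in ECM minus ACM under median scaling. Of all 9803 genes, 1117 were lower in ECM minus ACM under that scaling. The ratio of Cpt1b to Cpt1a and the chip as a block could not be run, and values near background, such as those of Acsl4 and Hadh, limit what these arrays can show.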
